A study of Mus musculus with 8 samples.

Results

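The enzymes that oxidize and conjugate foreign chemicals, retinoids and fatty acids were examined in the airway of old and young mice. They were taken as every gene of cytochrome P450 families 1 to 4, the flavin monooxygenases, the UDP-glucuronosyltransferases, the sulfotransferases and the aldehyde dehydrogenases that had a probe set carrying its symbol alone, and each gene was represented by its brightest probe set. This gave 103 of the 18174 genes measured, namely 56 P450 genes, 20 aldehyde dehydrogenases, 13 sulfotransferases, 10 UDP-glucuronosyltransferases and 4 flavin monooxygenases. RNA came from the distal trachea and carina (the point where the trachea divides into the main bronchi) of female C57Bl/6 mice, 4 of them old (14 months) and 4 young (2 months), with 1 mouse on each Affymetrix array. The old mice are numbered 1, 2, 5 and 6 and the young mice 3, 4, 7 and 8, and the labels give no mutation and no treatment in either group. Signals are linear intensities in arbitrary units, and differences are log2 signal in old mice minus log2 signal in young mice.

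Cytochrome P450 enzymes are heme proteins of the endoplasmic reticulum that insert oxygen into a substrate with electrons passed on by a reductase. Flavin monooxygenases oxidize nitrogen and sulfur atoms, and aldehyde dehydrogenases turn reactive aldehydes, retinal among them, into acids. Sulfotransferases and UDP-glucuronosyltransferases then join a sulfate or a sugar acid to the product, which makes it easier to excrete. In the mouse airway much of this chemistry takes place in club cells, whose P450 enzymes activate inhaled toxicants such as naphthalene.

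The region around the start of transcription is shown for 6 genes that carry the comparisons below, from RefSeq on the GRCm38.p6 assembly, each as the 250 bases before and 50 bases after the annotated start, 5′ to 3′ on the strand of the gene. Sult1c1 and Ugt2b34 are the members that passed the test of age. Sult1b1 and its neighbor Sult1d1 differed in their age values, and Aldh1a1 and Aldh1a7 are close paralogs on chromosome 19. Sult1c1 lies at chr17:53990582-53990881, Ugt2b34 at chr5:86906888-86907187, Sult1b1 at chr5:87536173-87536472, Sult1d1 at chr5:87568957-87569256 and Aldh1a7 at chr19:20727507-20727806, all on the minus strand, and Aldh1a1 at chr19:20601718-20602017 on the plus strand. Sult1b1 and Aldh1a1 each have 2 annotated windows, of which the more downstream is given. Capitals mark each match, on either strand, to TATAAA (the TATA box), CCAAT (the CCAAT box), TGANTCA (AP-1), GCGTG (the core of the xenobiotic response element), TGACNNNGC (the antioxidant response element) or ATGCAAAT (the octamer).
Sult1c1: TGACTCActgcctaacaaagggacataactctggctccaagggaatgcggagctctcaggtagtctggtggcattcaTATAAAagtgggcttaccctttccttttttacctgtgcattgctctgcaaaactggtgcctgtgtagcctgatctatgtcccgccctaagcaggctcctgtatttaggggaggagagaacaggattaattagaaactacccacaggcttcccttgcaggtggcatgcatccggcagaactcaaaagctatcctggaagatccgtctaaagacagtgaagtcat
Ugt2b34: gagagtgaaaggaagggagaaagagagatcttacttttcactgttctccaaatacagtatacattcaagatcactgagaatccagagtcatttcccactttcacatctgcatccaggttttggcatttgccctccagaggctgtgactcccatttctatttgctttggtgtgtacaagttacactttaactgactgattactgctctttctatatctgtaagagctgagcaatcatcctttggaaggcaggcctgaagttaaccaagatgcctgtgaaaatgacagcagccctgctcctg
Sult1b1: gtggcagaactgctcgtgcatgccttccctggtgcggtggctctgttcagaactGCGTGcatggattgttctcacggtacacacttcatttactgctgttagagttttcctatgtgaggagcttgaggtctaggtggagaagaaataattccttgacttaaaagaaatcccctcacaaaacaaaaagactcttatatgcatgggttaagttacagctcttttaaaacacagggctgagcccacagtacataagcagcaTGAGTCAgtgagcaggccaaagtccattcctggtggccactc
Sult1d1: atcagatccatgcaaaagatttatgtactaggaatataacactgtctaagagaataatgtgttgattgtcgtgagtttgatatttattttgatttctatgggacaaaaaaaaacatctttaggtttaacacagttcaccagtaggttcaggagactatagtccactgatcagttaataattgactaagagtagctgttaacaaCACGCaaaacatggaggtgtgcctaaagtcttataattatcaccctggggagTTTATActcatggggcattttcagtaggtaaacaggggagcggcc
Aldh1a1: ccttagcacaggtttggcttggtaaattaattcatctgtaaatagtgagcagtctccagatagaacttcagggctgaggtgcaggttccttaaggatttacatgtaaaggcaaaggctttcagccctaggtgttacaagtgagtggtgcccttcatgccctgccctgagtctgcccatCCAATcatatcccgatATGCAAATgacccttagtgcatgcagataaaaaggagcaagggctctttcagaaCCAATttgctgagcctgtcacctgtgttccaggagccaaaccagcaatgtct
Aldh1a7: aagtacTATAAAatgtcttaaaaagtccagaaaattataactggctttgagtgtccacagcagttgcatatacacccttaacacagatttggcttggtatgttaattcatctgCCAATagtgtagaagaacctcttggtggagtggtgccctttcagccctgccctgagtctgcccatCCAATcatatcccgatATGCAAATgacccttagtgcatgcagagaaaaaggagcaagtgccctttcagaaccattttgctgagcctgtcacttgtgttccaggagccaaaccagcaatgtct

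The windows of the paralogs Aldh1a1 and Aldh1a7 were alike. When aligned, 221 of 285 bases were identical (77.5%), with an unbroken shared run of 65 bases, and each window held CCAAT at position -72 and the octamer ATGCAAAT at position -56 from the start. The neighbors Sult1b1 and Sult1d1 matched at 58.5% of 258 aligned bases and Sult1c1 and Ugt2b34 at 61.6%, with shared runs of at most 8 bases. The window of Sult1c1 held TATAAA at position -173 and TGACTCA at position -250, whereas that of Ugt2b34 held none of the 6 motifs. The window of Sult1b1 held GCGTG at position -196 and TGAGTCA at position 9, and that of Sult1d1 held, on the other strand, GCGTG at position -47 and TATAAA at position 6. No matches overlapped in the windows shown. GCGTG, in 32.4% of all 32851 windows, was in 23.9% of the 92 windows of member genes, and TGACNNNGC was in 12.4% and 7.61%. TATAAA was in 13.6% of all windows and 27.2% of member windows, CCAAT in 37.4% and 47.8%, TGANTCA in 7.81% and 14.1%, and the octamer in 1.74% and 4.35%. These are matches of letters in a window, and no binding was measured here.

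Across the 103 enzymes, 2 were higher with age in limma at an adjusted p under 0.05, Sult1c1 and Ugt2b34, and 0 were lower. Over all genes, 64 passed in the same test in the upward direction (0.352%) and 32 in the downward direction (0.176%). At an unadjusted p under 0.05 the enzymes gave 10 higher and 5 lower, against 7.24% and 7.29% of all genes. A change above 2-fold with an unadjusted p under 0.05 was reached by 1 enzyme upward (Sult1c1) and 1 downward (Ugt2a3), against 1.03% and 0.589% of all genes. Ugt2b34, at 1.998-fold, lay just under the 2-fold line.

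The 4 old and 4 young values did not overlap for 12 enzymes (11.7%), 9 with every old mouse above every young mouse (4.96% of all genes) and 3 with every old mouse below (5.11%). Either direction together was 10.1% of all genes, so the share over the whole set was near the background. By brightness the set fell into unequal parts. Of the 32 enzymes at or above the median brightness of all genes (a signal of 349.5), 8 had no overlap (25%), against 13.1% of the 9087 genes that bright. These were 6 enzymes with every old mouse above, against 6.18% of bright genes, and 2 with every old mouse below, against 6.94%. Of the 71 dimmer enzymes, 4 had no overlap (5.63%). Among all genes, too, the share was higher in the bright ones (13.1%) than in bright and dim ones together (10.1%). The median difference over the 103 enzymes was -0.073 and over all genes -0.0049, with 44 enzymes above 0 and 59 below. Over all genes 8897 were above 0 and 9277 below. A mean signal under 64 was found for 42 of the 103 enzymes, and no detection call was available.

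**Figure D1:**
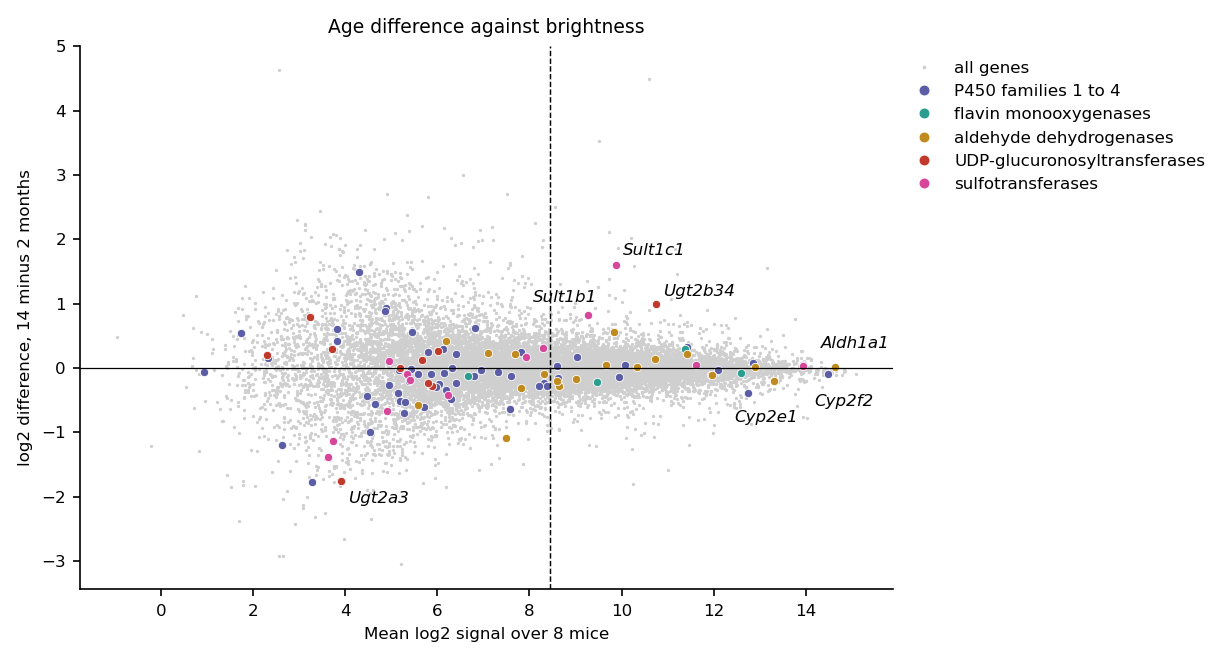
Log2 difference between 14 and 2 months (vertical axis) against mean log2 signal over the 8 mice (horizontal axis) for all 18174 genes in gray and the 103 enzymes in color by family, with the median brightness as a dashed line. Sult1c1 (1.60), Ugt2b34 (0.999) and Sult1b1 (0.82) stand above the other bright enzymes, while dim enzymes scatter from -1.77 to 1.49.

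Sult1c1, a sulfotransferase of phenols and related aromatic compounds, gave the highest difference of the 103 enzymes. Its signal was 1528, 1591, 1650.4 and 1806 in old mice 1, 2, 5 and 6, and 591, 478, 425 and 715 in young mice 3, 4, 7 and 8. Every old mouse was above every young mouse, and the lowest old value was more than double the highest young value. The means were 1644 ± 119 in old mice and 552 ± 129 in young mice (SD, n = 4), a 3.03-fold difference with a 95% interval of 2.33 to 3.95 and an adjusted p of 0.0217 in limma. Without 1 mouse the difference stayed between 1.48 and 1.73, and the adjusted p lay between 0.0216 and 0.0748; it passed 0.05 only without old mouse 1, old mouse 6 or young mouse 8. The study lists Sult1c1 and Ugt2b34 from these same arrays, so their direction here is not independent evidence. In whole tissue, a change in the share of a cell type and a change in RNA per cell cannot be told apart.

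The other sulfotransferases gave differences from -1.38 to 0.82. Sult1c1 and Sult1c2 are neighbors on chromosome 17, and the difference of Sult1c2 was 0.17 (95% interval -0.36 to 0.69), with a signal below the median brightness. Sult1b1, which sulfates thyroid hormones and small phenols, gave 847, 727, 733 and 1035 in the old mice and 453, 549, 394 and 490.2 in the young mice. All 4 old values of Sult1b1 were above the young ones. Its difference was 0.82 ± 0.15 (SE) and its adjusted p 0.0699, which misses the threshold. When only the brighter genes were tested, Sult1b1 passed with an adjusted p of 0.00806. That setting called many more genes, 221 higher and 226 lower of 9087, against 64 and 32 of 18174 in the main test.

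Sult1d1, which sulfates dopamine and other catecholamines and sits next to Sult1b1 on chromosome 5, read 14257, 15767, 16224 and 17462 in old mice and 15736, 15273, 15483 and 15832 in young mice. The ages overlapped, and the difference was 0.028 with an interval of -0.15 to 0.21. Sult1a1, a broad phenol sulfotransferase, read 3259, 3924, 2584 and 3148 in old mice 1, 2, 5 and 6 and 1936, 2696, 3894 and 4558 in young mice 3, 4, 7 and 8. Old mice 1 and 2 were above young mice 3 and 4, whereas old mice 5 and 6 were below young mice 7 and 8. The overall difference of Sult1a1 was 0.042, and its interval of -0.60 to 0.68 was the widest among the bright enzymes. The other 9 sulfotransferases, Sult1c2 among them, were dim. Of these, Sult5a1, named after its values were seen, stood at 355 ± 51.8 in old mice and 284 ± 22.5 in young mice, a difference of 0.32 with an adjusted p of 0.281.

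Ugt2b34, a family 2 UDP-glucuronosyltransferase, was the other enzyme that passed. Its signal was 2289, 2645, 2175 and 2675 in old mice and 1318, 1332, 1035 and 1216 in young mice, with every old value above every young one. The means were 2446 ± 252 in old mice and 1225 ± 137 in young mice (SD, n = 4), the difference 0.999 ± 0.11 (SE; 95% interval 0.73 to 1.26) and the adjusted p 0.0263. The adjusted p rose above 0.05 when any 1 of the 8 mice was left out (0.0540 to 0.0780), with a difference that stayed between 0.92 and 1.05. Its probe set is of a kind that can bind related transcripts, and a second probe set of the gene gave a difference of 1.25. In a fit over all 45037 probe sets in place of genes the adjusted p was 0.0531 for the brighter set and 0.0901 for the second.

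No Ugt1 gene had a probe set carrying its symbol alone, so the 10 UDP-glucuronosyltransferases measured leave that family out. Among the 10, Ugt2b34 was the only 1 at or above median brightness. It lies at one end of a run of 13 protein-coding genes on chromosome 5 in the RefSeq order, 10 of them UDP-glucuronosyltransferases and 3 sulfotransferases, of which 11 had a probe set of their own. The 3 bright genes of the run were Ugt2b34 (0.999), Sult1b1 (0.82) and Sult1d1 (0.028). Sult1b1 and Sult1d1 are adjacent, and their intervals of 0.47 to 1.17 and -0.15 to 0.21 did not overlap. The dim genes had wide intervals. Ugt2a3 read 6.08, 8.61, 7.07 and 11.9 in old mice and 10.5, 32.2, 38.9 and 43.3 in young mice, so that young mouse 3 fell among the old mice. Its difference of -1.75 ± 0.46 (SE) had an adjusted p of 0.154 and shrank to -0.18 when signals under 32 were set to 32. Sult1e1, which sulfates estrogens, differed by -1.14 with an interval of -2.75 to 0.48, and Ugt2b1 by 0.80 with -1.41 to 3.002.

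**Figure D2:**
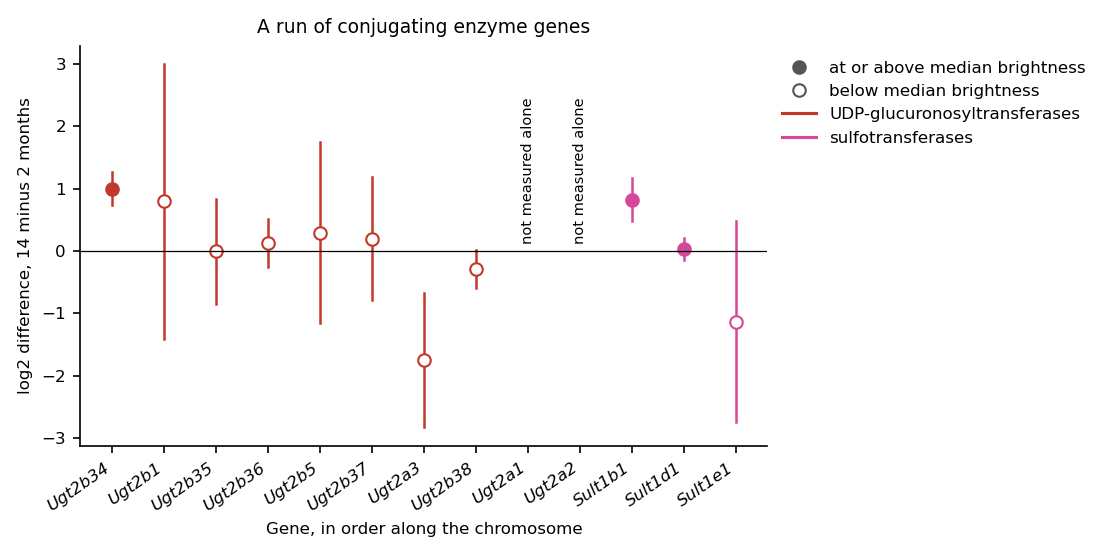
Log2 difference between 14 and 2 months with its 95% interval for the genes of the chromosome 5 run, in their order along the chromosome; filled points are at or above median brightness and open points below. Ugt2b34 and Sult1b1 lie above 0, Sult1d1 beside Sult1b1 lies at 0.028, and the dim genes have intervals that mostly cross 0, with Ugt2a3 below it.

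Besides Sult1c1, Sult1b1 and Ugt2b34, 9 enzymes had no overlap between the ages, and none of these passed the adjusted threshold. Among P450 enzymes, 3 of 13 members of family 4, which hydroxylate fatty acids and eicosanoids, were higher in every old mouse, beside 4.96% of all genes. Of these, Cyp4f18 and Cyp4f39 were below the median brightness. Cyp4f18, which inactivates leukotriene B4 in neutrophils, read 138, 122, 142 and 154 in old mice and 63.6, 98.3, 106 and 102 in young mice. Its difference was 0.62 ± 0.17 (SE), with an adjusted p of 0.170. In the same arrays the summed signal of 5 neutrophil markers was 1224 to 2610 in old mice and 403 to 711 in young mice. For 4 of the 5 markers every old mouse was above every young mouse, beside 4.96% of all genes. The part of neutrophils in the value of Cyp4f18 was not tested.

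Cyp4a12a, an omega-hydroxylase of arachidonic acid with a near-identical copy that the probes may not tell apart, read 2754, 3415, 3229 and 2858 in old mice and 2493, 2339, 2178 and 2726 in young mice. The old values began just above the highest young value, and the difference was 0.33 ± 0.10 (SE, adjusted p 0.210). Cyp4f39, which hydroxylates very long fatty acids of the skin barrier, read 232, 246, 283 and 227 in old mice and 225, 202, 202 and 202 in young mice, a difference of 0.25 (adjusted p 0.273). The gap between the ages was narrow, since young mouse 3 lay close to old mouse 6.

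Cyp2j9, an arachidonic acid hydroxylase, was the only P450 enzyme lower in every old mouse. It read 131, 151, 152 and 183 in old mice and 249.5, 316, 192 and 209.7 in young mice, with a difference of -0.63 ± 0.17 (SE, adjusted p 0.166) and a signal below the median brightness. Of the 35 family 2 enzymes, 25 had a difference below 0 and 10 above, beside 9277 below and 8897 above over all genes. Dim enzymes made up 30 of the 35. The 5 family 3 enzymes were all dim, with a median difference of -0.28 and a range of -1.197 to 0.60.

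Of the 20 aldehyde dehydrogenases, 13 were bright and 5 had no overlap (25%), beside 10.1% of all genes, and 4 of the 13 bright ones had no overlap (30.8%), beside 13.1% of bright genes. Aldh3b1, which oxidizes aldehydes from lipid peroxidation, read 1015, 1054, 1056 and 1318 in old mice and 842, 645, 652 and 910.1 in young mice. Its difference was 0.55 ± 0.15 (SE, adjusted p 0.157). It passed at an adjusted p of 0.0400 when only the brighter genes were tested, a setting that called 221 of 9087 genes higher. Its relative Aldh3b2 was also higher in every old mouse, at 234, 204, 231 and 219.6 against 197, 169.7, 199 and 203, with a difference of 0.21 (adjusted p 0.307). Aldh9a1, an enzyme of carnitine synthesis, had tight groups of 2837, 2959, 3018 and 3103 in old mice and 2579, 2467, 2643 and 2518 in young mice. That gave a small difference of 0.22 ± 0.062 (SE, adjusted p 0.170), and a second probe set gave 0.23.

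The 2 aldehyde dehydrogenases lower in every old mouse were Aldh1a7 and Aldh5a1. Aldh1a7 read 8857, 10211, 9149.7 and 9639 in old mice and 10556, 10513, 11383 and 10962 in young mice, a difference of -0.20 ± 0.071 (SE, adjusted p 0.265). Its paralog Aldh1a1, which converts retinal to retinoic acid, read 22799.7, 24845, 27435 and 27284 in old mice and 25444, 24686, 24561 and 26466 in young mice. The ages overlapped for Aldh1a1, and its difference was 0.014 with an interval of -0.18 to 0.20. The difference between the paralogs was not tested, their intervals overlap, and binding of either transcript to the other's probes was not tested. Aldh5a1, which clears succinic semialdehyde in the breakdown of the transmitter GABA, stood at 365 ± 26.2 in old mice and 419 ± 21.2 in young mice, a difference of -0.20 (adjusted p 0.299).

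**Figure D3:**
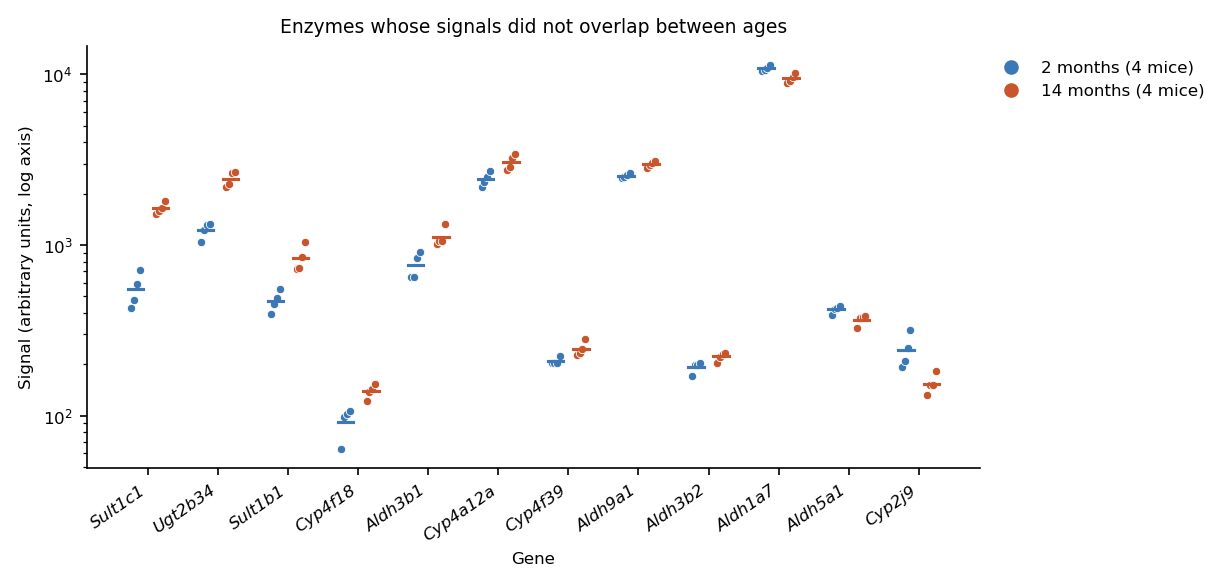
Signal of each mouse (arbitrary units, log axis) for the 12 enzymes whose 4 old (14 months) and 4 young (2 months) values did not overlap, ordered by their difference; points are mice, spread sideways for visibility. The gap is wide for Sult1c1, where old mice read 1528 to 1806 and young mice 425 to 715, and narrow for Cyp4f39.

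The enzymes known from airway epithelium or lung had small differences between the ages. The group held 12 measured genes. Listed genes without a probe set of their own, such as Cyp2a5 and Ugt1a6a, were left out. None of the 12 passed an adjusted p under 0.05, 1 passed an unadjusted p under 0.05 (Aldh1a7, lower), and the same gene was the 1 without overlap (8.33%). Over all genes 7.29% were lower at that p and 10.1% had no overlap, so these counts were near the background. Their median difference was 0.021, with 7 above 0 and 5 below and a range of -0.20 to 0.30. The median size of the difference was 0.081, beside 0.099 over all genes at or above median brightness. The 95% interval lay within 1.5-fold in either direction for 10 of the 12 and within 2-fold for all 12. By its brightest probe set, a change above 2-fold was therefore outside the interval for each of them.

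Among the P450 enzymes of this group, Cyp2f2, which activates naphthalene in club cells, read 20104, 22188, 23711 and 23488 in old mice and 24923, 24704, 21129.8 and 24233 in young mice. Cyp4b1, which acts on fatty acids and on inhaled toxicants, read 14390.2, 16377, 16719.6 and 16482 in old mice and 15549, 14788, 14637 and 17039 in young mice. In both, the ages overlapped, with differences of -0.086 (interval -0.29 to 0.12) and 0.045 (interval -0.15 to 0.24). Cyp2b10, a P450 enzyme induced through the nuclear receptor CAR, stood at 7624 ± 860.2 in old mice and 7169 ± 466 in young mice (difference 0.084). Cyp2s1, a P450 enzyme of airway and skin epithelium, stood at 4369 ± 365 in old mice and 4453 ± 394 in young mice (difference -0.027).

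The flavin monooxygenases of this group were Fmo1 and Fmo2. Fmo2, the main lung form, read 5194, 6685, 5723 and 6386 in old mice and 4694, 5408, 7733 and 8042 in young mice 3, 4, 7 and 8, so that young mice 7 and 8 exceeded all 4 old mice and young mouse 3 lay below them. Its difference was -0.079 with an interval of -0.53 to 0.37. Fmo1 stood at 2993 ± 411 in old mice and 2463 ± 558 in young mice, and its difference of 0.30 had an interval of -0.13 to 0.73, which reaches past 1.5-fold.

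Of the retinal-oxidizing and detoxifying aldehyde dehydrogenases, Aldh3a1, also a major protein of the cornea, read 4369, 4286, 2688 and 4151 in old mice and 4109, 4496, 4019 and 3827 in young mice. Old mouse 5 was below all others, and the difference was -0.11 (interval -0.49 to 0.27). Aldh1a3, which makes retinoic acid, was the 1 dim member of the group, at 149 ± 21.3 in old mice and 127 ± 17.1 in young mice. Its difference of 0.23 turned to -0.061 when all its probe sets were averaged. In the fit over all probe sets, its dimmer ones gave -0.82 (interval -1.80 to 0.16) and 0.41 (interval -0.57 to 1.40), both reaching past 2-fold.

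**Figure D4:**
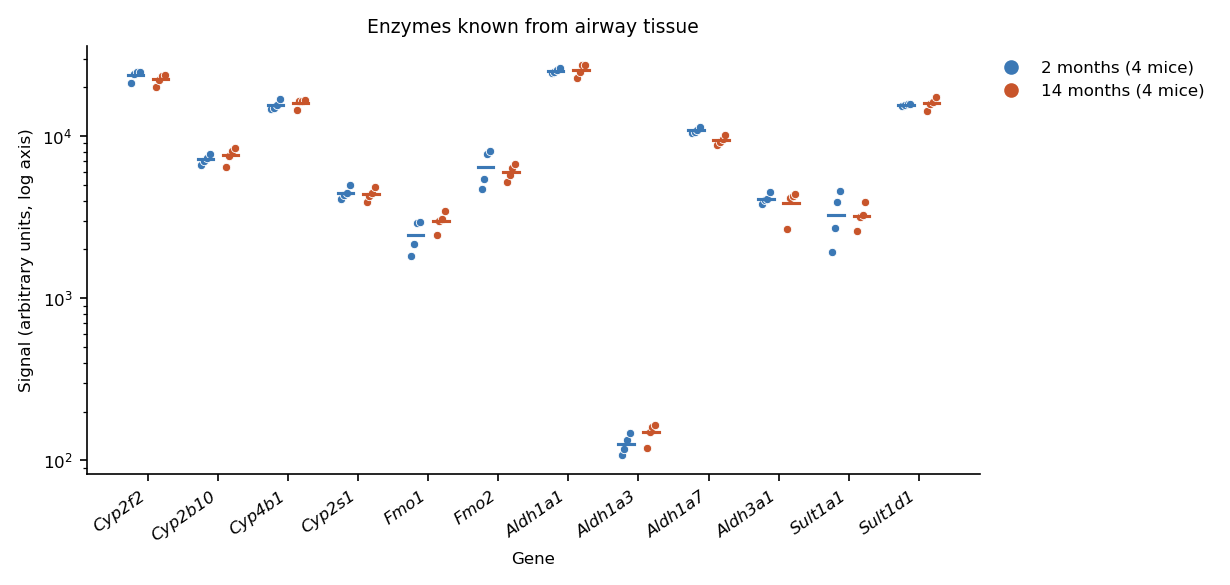
Signal of each mouse (arbitrary units, log axis) for the 12 measured enzymes known from airway epithelium or lung at 2 months (4 mice) and 14 months (4 mice). Points are mice, spread sideways for visibility. The ages overlap for all but Aldh1a7, whose old mice read 8857 to 10211 and young mice 10513 to 11383.

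Precision set what could be seen in the rest of the enzymes. The median SE was 0.103 for the 32 bright enzymes and 0.351 for the 71 dim ones. The 95% interval lay within 2-fold for 29 bright enzymes, the exceptions being Sult1c1, Ugt2b34 and Sult1b1, and for 31 dim ones. The number of arrays limits this precision, and a dim enzyme whose interval crosses 0 may still differ. Cyp2e1, which oxidizes ethanol and other small molecules and was named after its values were seen, had the lowest difference among the bright enzymes. It read 4791, 8721, 4672 and 6722 in old mice 1, 2, 5 and 6 and 6749.5, 6381, 10189.6 and 8684 in young mice 3, 4, 7 and 8, with overlap and a difference of -0.38 (interval -0.95 to 0.18). The summed signal of 5 adipocyte markers was 12680, 22910, 10478 and 19556 in the same old mice and 14775, 14953, 23437 and 14438 in the same young mice. The 2 old mice with higher Cyp2e1 also had the higher adipocyte sum. Among young mice, mouse 7 was highest in both, but mouse 8, at 8684 for Cyp2e1, had the lowest sum. The adipocyte markers were divided, with 2 above 0 and 3 below (median -0.10, range -0.32 to 1.11). The part of adipocytes in the value of Cyp2e1 was not tested.

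**Figure D5:**
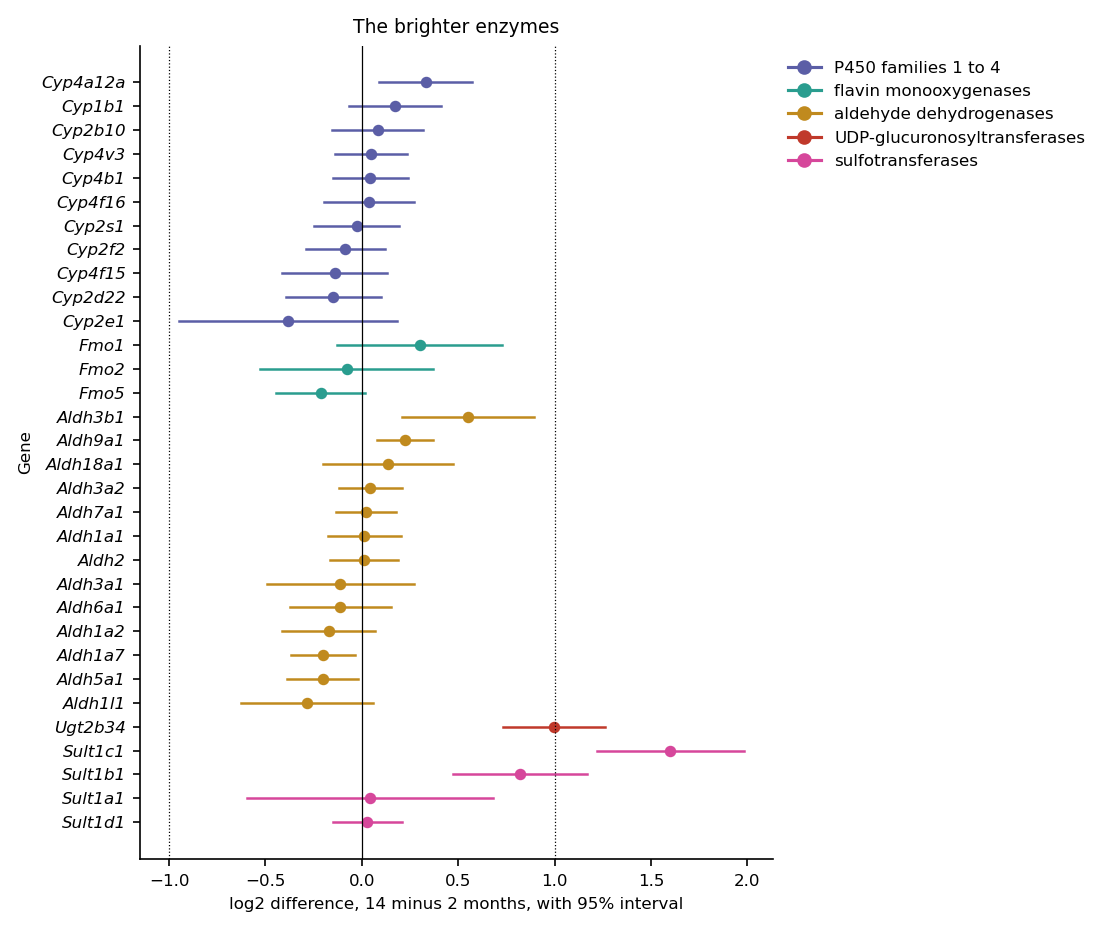
Log2 difference between 14 and 2 months with its 95% interval for the 32 enzymes at or above median brightness, by family; dotted lines mark a 2-fold change in either direction. All but Sult1c1, Ugt2b34 and Sult1b1 have intervals that stay between the dotted lines.

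Of the genes listed as working with or beside these enzymes, only Ces1f, below, passed an adjusted p under 0.05. Over all genes 0.352% passed upward and 0.176% downward, and 10.1% had no overlap. Lists this short would mostly hold 0 calls at those shares, so 0 calls says little about them. The 4 measured electron donors of P450 enzymes, among them cytochrome b5 (Cyb5a), had 0 calls and no case without overlap, with a median difference of -0.081. The same held for 10 xenobiotic receptors and their partners, such as Ahr and Nfe2l2 (median 0.091). Among 8 genes that supply cofactors for sulfation and glucuronidation, all bright, 0 passed an adjusted p under 0.05. The Golgi transporters of the sulfate donor PAPS, 2 of the 8, were lower in every old mouse, beside 6.94% of bright genes. Slc35b2 stood at 475.5 ± 27.8 in old mice and 626 ± 80.2 in young mice, a difference of -0.39 ± 0.11 (SE, adjusted p 0.164). Slc35b3 differed by -0.28 (adjusted p 0.245). Ugdh, which makes the sugar donor of glucuronidation, differed by 0.11 with overlap.

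Of 14 other oxidoreductases and hydrolases of foreign compounds, 1 rose, the carboxylesterase Ces1f, at 3121 ± 262 in old mice and 1497 ± 225 in young mice. Its difference was 1.07 ± 0.12 (SE, adjusted p 0.0263), and the study lists it from these arrays as well. Another carboxylesterase, Ces1g, differed by 1.41 (adjusted p 0.0979) at a dim signal, and the epoxide hydrolase Ephx1 by -0.15. The 6 measured enzymes of methyl and acetyl conjugation had 0 calls and a median difference of -0.22, with Hnmt, which methylates histamine, at -0.38, Inmt at -0.38 and Tpmt at -0.41. The 19 measured P450 enzymes outside families 1 to 4 had 0 calls. Cyp17a1, an enzyme of steroid synthesis, differed by 1.45 (adjusted p 0.148) and Cyp24a1, which breaks down vitamin D, by 1.92 (adjusted p 0.298), both dim, and the thromboxane synthase Tbxas1 differed by 0.21 (adjusted p 0.267). The 13 measured genes of the retinoid pathway had 0 calls and a median difference of -0.089, with the retinol dehydrogenase Rdh10 at -0.15, Rxrg at -0.19 and Rarb at -0.18.

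Markers of the tissue were present, and some differed with age beside the enzymes. The summed signal of 7 club cell markers was 93053 to 108095 in old mice and 98789 to 110461 in young mice, and that of 9 ciliated cell markers was 33173 to 40649 and 31199 to 36683, both with overlap. Of the 7 club cell markers, all bright, 2 were above 0 and 5 below (median -0.056, range -0.56 to 0.29). No overlap was seen for 2 of them (28.6%), 1 higher and 1 lower in old mice, beside 13.1% of bright genes. The club cell secretoglobin Scgb1a1 stood at 28761 in old mice and 29859 in young mice. Hepatocyte markers, of interest because many of these enzymes are best known from liver, were dim at a summed 143 to 234 and 138 to 256. Of 6 basal cell markers 4 were above 0 and 2 below, and 3 had every old mouse above every young mouse, beside 4.96% of all genes. Their sums, 7891 to 8946 in old and 6794 to 8530 in young mice, overlapped. Of 5 markers of squamous epithelium, 1 had no overlap, Krt4, beside 10.1% of all genes, and it had the highest difference. Of the 5, 3 were above 0 and 2 below (median 0.095, range -0.52 to 1.39). Their sums were 1490 to 2449 in old and 825 to 1058 in young mice. Sums without overlap were also seen, higher in old mice, for plasma and B cells (6 markers, 4687 to 15904 in old and 574 to 1223 in young mice), neutrophils (5 markers, 1224 to 2610 and 403 to 711) and macrophages (6 markers, 10373 to 12375 and 8960 to 10099). Those lower in old mice without overlap were fibroblasts (6 markers, 56137 to 63635 and 64050 to 70778) and skeletal muscle (6 markers, 1531 to 2240 and 2380 to 3153). Of the fibroblast markers, all bright, 1 was above 0 and 5 below (median -0.081, range -0.73 to 0.0067). Only 2 of these 6 were lower in every old mouse, beside 6.94% of bright genes. The skeletal muscle markers were divided, with 3 above 0 and 3 below and a median of 0.094. Of these 6, 1 had no overlap, beside 10.1% of all genes. Sult1c1, Ugt2b34 and Sult1b1 were higher in every old mouse, as were the sums for squamous epithelium, plasma and B cells, neutrophils and macrophages. The fibroblast and skeletal muscle sums ran the other way. The part of these cell types in the values of the enzymes was not tested.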

How the data were processed

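Total RNA of distal tracheas and carinas from 8 mice, 4 at each age, was measured on Affymetrix Mouse Genome 430 2.0 arrays. The authors' methods name robust multichip analysis with Partek software for normalization, and the labels name Partek. The deposited intensity values are linear signals of 45101 probe sets, with a mean of 500.002 on each array once 2% at either end is trimmed, a form more usual for single-array signals. How they were made is therefore not settled. They carry no detection call. Array medians lay between 150.0 and 160.8, and arrays correlated at 0.960 to 0.969 across genes.

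Signals were taken to log2 with no filter, and 64 control probe sets were left out. The platform annotation left 34945 probe sets with 1 symbol, 932 with several and 9160 without any; 39 immunoglobulin chain probe sets were set aside. Member families had 142 probe sets with 1 symbol, and 10 with several symbols were not used. Ages were compared with limma 3.58.1 in R 4.3.3 (lmFit and eBayes, two-sided, Benjamini-Hochberg over 18174 genes). The steps were tested on simulated data. The methods' analysis of variance has a second factor that is not named, so age alone was fitted. Mice are replicates by the labels. The p-values set the age difference against the spread between these mice, with the variance of each gene moderated across genes. With 1 array per mouse, spread between mice and between arrays cannot be told apart.

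Members and lists were chosen with earlier results of these data known, and motifs with the sequences known. Genes named are the airway enzymes, Sult1c1 and Ugt2b34, members past a threshold or without overlap, and up to 3 genes of each other list by smallest p; Cyp2e1, Sult5a1, Sult1c2, Sult1e1, Ugt2b1, Cyb5a, Ahr, Nfe2l2 and the markers were named outside that rule. A listed airway gene is not reported here. Promoter windows were found for 80 of the 103 members. Alternatives were leaving out each mouse, an unmoderated test, a trended and robust prior, quantile normalization, median centring, a block for mouse numbers up to 4 against those from 5, brighter genes only, floors of 32 and 64, leaving out probe sets ending in _x_at or _s_at, and the mean of a gene's probe sets. Marker lists not described in the report were goblet cells (no overlap in 0 of 6), serous gland cells (0 of 6), alveolar epithelium (0 of 4), smooth muscle (2 of 6), cartilage (2 of 6), endothelium (2 of 6) and thyroid (0 of 4). Over all genes 10.1% had no overlap. The 2 smooth muscle cases were lower in old mice, and all 6 smooth muscle markers had a difference below 0 (median -0.18). Cartilage and endothelium each had 1 case higher and 1 lower.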

Additional observations from a re-analysis of the deposited data

Results flagged for a closer look

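In 7 of 48 groups of 4 mice among the named enzymes, 1 mouse lay apart from the other 3 by more than Dixon's 95% critical value, where chance gives about 1 group in 20. In each case the gap to the nearest mouse is given as a share of the group's range on the log2 scale. Old mouse 5 was low for Aldh3a1 (0.895), at a signal of 2688 against 4151 to 4369. Old mouse 6 was high for Aldh3b1 (0.849), and old mouse 1 was low for Cyp4b1 (0.862). Among the young mice, mouse 3 was low for Cyp4f18 (0.855) and high for Cyp4f39 (0.994). Young mouse 4 was low for Aldh3b2 (0.839), and young mouse 7 was low for Cyp2f2 (0.830).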

How the results depend on the processing

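Of the enzymes, 2 were higher at an adjusted p under 0.05, and this count was 4 with brighter genes only and with the trended and robust prior, which add Sult1b1 (adjusted p 0.00806 and 0.00819) and Aldh3b1 (0.0400 and 0.0437). It was 3 with floors of 32 and 64, which add Aldh9a1 (0.0471 and 0.0387), and 0 to 1 when 1 mouse was left out. Sult1c1 (difference 1.48 to 1.73 without 1 mouse) then lost its call without old mouse 2, old mouse 5, young mouse 3, young mouse 4 or young mouse 7, and Ugt2b34 without any 1 mouse. The count lower was 0 in every setting. The count above 2-fold higher was 1, and 2 with the mean of all probe sets, quantile normalization, the trended prior and without _x_at and _s_at probe sets, and 1 to 3 without 1 mouse. The count above 2-fold lower was 1, was 0 with brighter genes only and with either floor, was 2 with the mean of all probe sets, median centring, the block and the trended prior, and was 1 to 4 without 1 mouse. The airway median of 0.021 stayed within -0.018 to 0.050. Calls over all genes were 64 higher and 32 lower, 5 to 21 and 3 to 21 without 1 mouse, 258 and 216 with the trended prior, 221 and 226 with brighter genes only, 134 and 107 with a floor of 32, 136 and 118 with a floor of 64, 33 and 16 with the block, 41 and 11 with the mean of all probe sets, and 32 and 22 without moderation. Differences near 0 that changed sign were those of Aldh1a3 with all probe sets averaged (-0.061) and, when 1 mouse was left out, of Aldh1a1 (-0.021 to 0.068), Aldh3a1 (-0.18 to 0.056), Cyp2s1 (-0.076 to 0.030), Fmo2 (-0.22 to 0.038), Sult1a1 (-0.18 to 0.23) and Sult1d1 (-0.017 to 0.080). The cause of these shifts was not tested. No paired analysis was possible because the old and young mice share no number in the labels.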
